A study of Mus musculus with 8 samples.

Results

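The genes described here are 9 chemokine ligands, Ccl2, Ccl7, Cxcl1, Cxcl9, Cxcl10, Cxcl12, Cxcl13, Cxcl16 and Cx3cl1, chosen by symbol among the 17326 gene lines that held a count for all 8 libraries. All 9 were on such lines, and all 9 passed the filter on low counts. RNA came from mouse kidney cells separated by fluorescence-activated cell sorting into glomerular endothelium and podocytes, the epithelial cells that wrap the glomerular capillaries. The 4 groups were EMCN+/+ endothelium, EMCN-/- endothelium, EMCN+/+ podocytes and EMCN-/- podocytes, with 2 libraries each, numbered 2 and 3 in the labels. They are called wild type and knockout below. Endomucin (Emcn) is a sialomucin on the blood side of endothelial cells, and the study addressed what its loss does to the glomerulus. The sources used here do not say how the allele was made, the age of the mice, the markers used for sorting, or whether a library came from 1 animal or several, so the p-values measure the spread between these libraries.

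Chemokines are small secreted proteins that guide leukocytes along concentration gradients by binding G protein-coupled receptors, and many are held on vessel walls by the sugars of the glycocalyx. Inflammatory chemokines such as CCL2 and CXCL10 are switched on by NF-kB and interferon signals, whereas homeostatic ones such as CXCL12 are made steadily. CX3CL1 and CXCL16 are unusual in being made as membrane proteins with a mucin stalk, which can tether leukocytes and can be shed by the proteases ADAM10 and ADAM17. In the glomerulus, chemokines are best known for drawing monocytes and lymphocytes in glomerulonephritis, and podocyte CXCL12 for its role in building glomerular capillaries.

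Library totals over these lines ran from 10478956 to 17386042 counts. Levels are given as CPM, counts scaled to a common library total with TMM factors, edgeR's trimmed-mean scaling. The targeted gene went in the direction of the labels: endothelial Emcn averaged 1900.2 ± 102 CPM in the wild-type libraries and 176 ± 3.93 CPM in the knockout ones (SD, n = 2 each), with a log2 fold change of −3.43 (edgeR adjusted p 0.0205). That call was lost with library-size scaling (adjusted p 0.0835) and without any 1 of the 4 endothelial libraries (0.0989 and 0.0838 without wild-type 2 and 3, 0.191 and 0.117 without knockout 2 and 3), with a log2 fold change between −3.49 and −3.39 in these 4 fits. Podocyte Emcn averaged 55.0 ± 27.0 CPM against 5.27 ± 0.46 CPM (SD, n = 2 each). The 12 endothelial markers summed to between 9691 and 12605 CPM in endothelium and between 579 and 889 CPM in podocytes. The 6 of 12 podocyte markers on complete lines summed to between 7677 and 16639 CPM in podocytes and between 1092 and 2112 CPM in endothelium, so both marker lists had counts in both sorts. The 6 distal tubule markers on complete lines summed to between 2674 and 15151 CPM in endothelium and between 4727 and 11826 CPM in podocytes. The 10 of 18 immune markers on complete lines summed to between 38.1 and 66.1 CPM in endothelium and between 89.9 and 128 CPM in podocytes, where Csf1r alone held between 67.9 and 107 CPM. Of the 8 immune markers tested, 6 in wild type and 7 in knockout had a log2 fold change above 0, the endothelial side, with medians of 0.33 and 1.12. In such bulk libraries fewer cells of a type and less RNA per cell cannot be told apart.

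**Figure D1:**
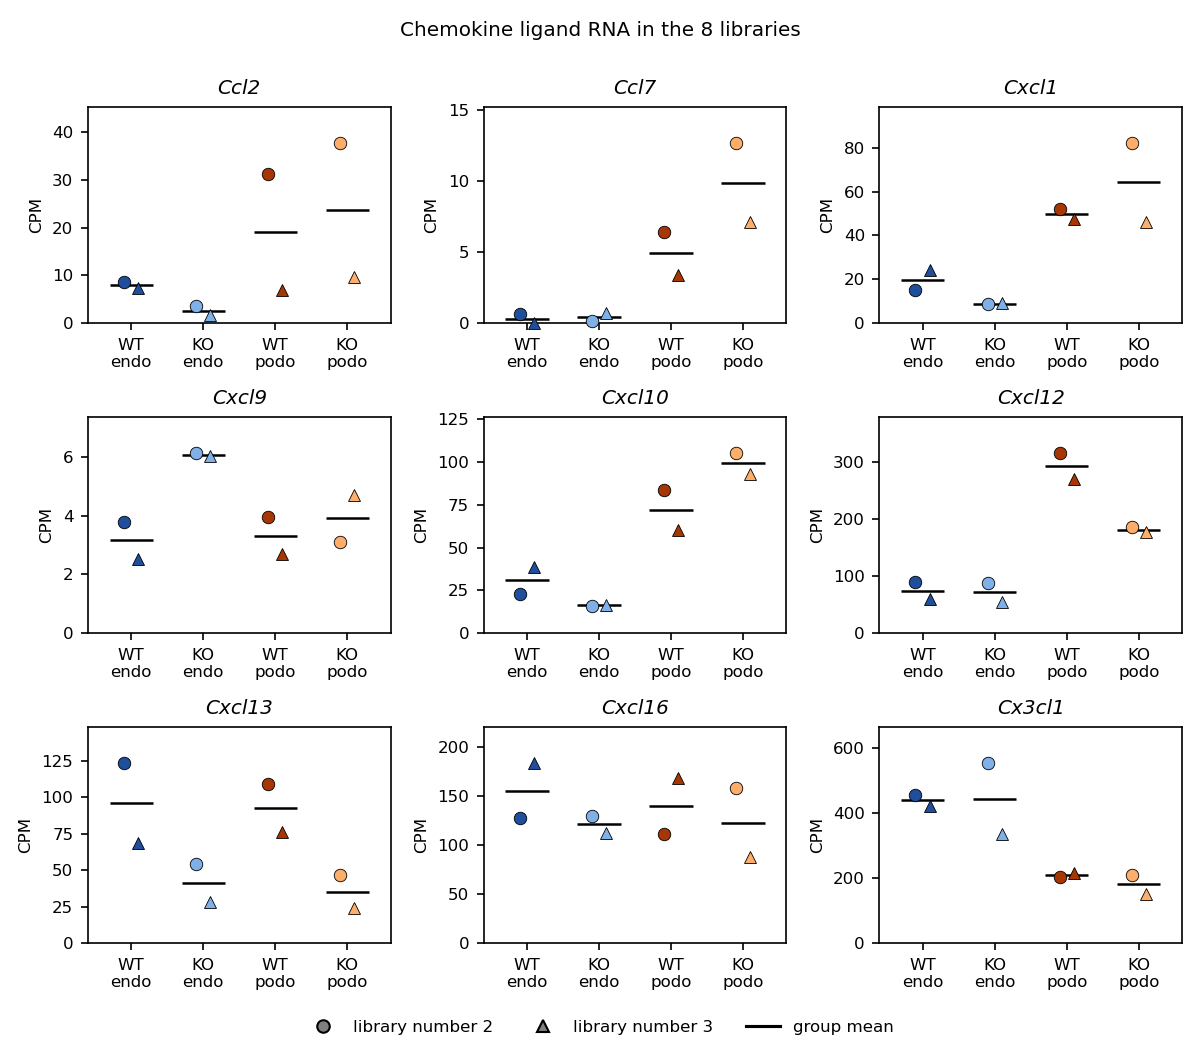
Level of each chemokine ligand in CPM (vertical axis, from 0) in the 4 groups (horizontal axis). Circles are libraries numbered 2, triangles are libraries numbered 3 and bars are group means of 2 libraries. Cxcl13 lies lower in knockout in both cell types, while Cxcl1, Cxcl10 and Ccl7 lie higher in podocytes.

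Cx3cl1 (Entrez 20312, chr8:94772009-94782427 in GRCm38), the fractalkine gene, encodes the membrane-bound ligand of CX3CR1 on monocytes. It stood at 457 and 424 CPM in wild-type endothelium (libraries 2 and 3) and at 555 and 335 CPM in knockout endothelium. Podocyte libraries held 205 and 214 CPM in wild type and 210 and 152 CPM in knockout. Every endothelial library was above every podocyte library, and in each cell type the knockout libraries overlapped the wild-type ones. The log2 fold change of endothelium over podocytes was 1.07 (SE 0.28, edgeR adjusted p 0.0406) in wild type and 1.30 (SE 0.29, edgeR adjusted p 0.0154) in knockout. The wild-type call was lost with library-size scaling (adjusted p 0.0800) and without any 1 of the 4 wild-type libraries, with adjusted p-values of 0.144 and 0.124 without endothelium 2 and 3 and 0.261 and 0.170 without podocyte 2 and 3. The knockout call was lost without knockout endothelium 2 (0.136) and without knockout podocyte 3 (0.0801). The predicted gene Gm51543 overlaps Cx3cl1 in the RefSeq table, and how strand was used in counting is not given in the sources used here.

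Cxcl16 (Entrez 66102, chr11:70453983-70459984 in GRCm38) encodes the other membrane-bound chemokine, the ligand of CXCR6 on T and NKT cells and a scavenger receptor. Endothelium held 127 and 184 CPM in wild type and 130 and 113 CPM in knockout. In podocytes the values were 111 and 169 CPM in wild type and 158 and 87.4 CPM in knockout. The 4 groups overlapped, and the log2 fold change of endothelium over podocytes was 0.15 (SE 0.32) in wild type and −0.02 (SE 0.32) in knockout, with 95% intervals from −0.57 to 0.87 and from −0.74 to 0.70. Neither passed (edgeR adjusted p 0.875 and 0.981). Cxcl16 overlaps Zmynd15 in the RefSeq table.

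Cxcl12 (Entrez 20315, chr6:117168535-117181367 in GRCm38) encodes the homeostatic ligand of CXCR4 and ACKR3. Its podocyte levels were 316 and 270 CPM in wild type and 186 and 177 CPM in knockout. Endothelium held 89.8 and 59.0 CPM in wild type and 87.2 and 55.2 CPM in knockout. The podocyte libraries of both genotypes were above all endothelial ones, and the knockout podocyte libraries were below the wild-type ones. Endothelium over podocytes gave a log2 fold change of −1.98 (SE 0.29, edgeR adjusted p 0.00145) in wild type, a 3.93-fold higher podocyte level, and of −1.35 (SE 0.29, edgeR adjusted p 0.0129) in knockout, a 2.54-fold higher one. Only the knockout call was lost among the alternatives, with library-size scaling (adjusted p 0.124) and without knockout endothelium 3 (0.0966).

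Ccl2 (Entrez 20296, chr11:82035571-82037453 in GRCm38), also known as MCP-1, encodes the main monocyte attractant acting on CCR2. Podocyte libraries held 31.2 and 6.97 CPM in wild type and 37.8 and 9.59 CPM in knockout. Endothelium held 8.66 and 7.31 CPM in wild type and 3.53 and 1.72 CPM in knockout. In both podocyte groups library 2 was above library 3 by about as much, with log2 differences of 2.14 and 1.96, so the spread between libraries was larger than the difference by genotype there. The cell types overlapped in wild type (log2 fold change −1.26, SE 0.73, edgeR adjusted p 0.405). They did not in knockout, where endothelium was lower by a log2 fold change of −3.16 (SE 0.79, edgeR adjusted p 0.0289). That call was lost with library-size scaling (adjusted p 0.0690) and without knockout endothelium 2 (0.0739), knockout endothelium 3 (0.147) or knockout podocyte 2 (0.232, with a log2 fold change of −1.86), and the log2 fold change ran from there to −3.84 over the fits that left out 1 library.

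Ccl7 (Entrez 20306, chr11:82045712-82047525 in GRCm38), next to Ccl2 on chromosome 11, encodes a monocyte attractant that shares CCR2. It was close to the counting floor in endothelium, with 8 and 0 counts in the wild-type libraries against 2 and 8 in the knockout ones. Wild-type podocytes had 99 and 47 counts (6.42 and 3.41 CPM), and knockout podocytes had 204 and 96 (12.7 and 7.08 CPM). Every podocyte library was above every endothelial one. Of the libraries that reached the CPM needed by the low-count filter, 4 were podocyte and 1 was endothelial, so Ccl7 was tested because of the side where it is high and the values that follow are a description. The log2 fold change of endothelium over podocytes was −4.00 (SE 1.02, edgeR adjusted p 0.0333) in wild type and −4.60 (95% interval −6.82 to −2.37, edgeR adjusted p 0.0148) in knockout, and the few endothelial counts make both sizes uncertain. When 1 library was left out they ran from −9.12 to −3.00 in wild type, the former against the endothelial library with 0 counts, and from −6.05 to −3.83 in knockout. The wild-type call was lost with library-size scaling (adjusted p 0.0681) and without wild-type endothelium 3 (0.129), podocyte 2 (0.177) or podocyte 3 (0.0523). The knockout call was lost without knockout endothelium 2 (0.113) or knockout podocyte 2 (0.0658).

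Cxcl1 (Entrez 14825, chr5:90891241-90893115 in GRCm38) encodes a neutrophil attractant that acts on CXCR2. Endothelium held 15.2 and 24.4 CPM in wild type and 8.74 and 8.95 CPM in knockout. Podocytes held 52.0 and 47.5 CPM in wild type and 82.1 and 46.2 CPM in knockout. All podocyte libraries were above all endothelial ones, and the knockout endothelial libraries were the lowest of the 8. The log2 fold change of endothelium over podocytes was −1.33 (SE 0.33, edgeR adjusted p 0.0274) in wild type, or 2.51-fold higher in podocytes, and −2.86 (SE 0.35, edgeR adjusted p 0.000481) in knockout, or 7.25-fold higher. In wild type the call was lost without endothelium 2 (adjusted p 0.181), podocyte 2 (0.178) or podocyte 3 (0.0903), and in knockout it was lost under none of the alternatives.

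Cxcl9 and Cxcl10 lie near each other on chromosome 5 and encode ligands of CXCR3, the receptor of activated T cells. Cxcl10 (Entrez 15945, chr5:92346638-92348889 in GRCm38) stood at 23.1 and 38.9 CPM in wild-type endothelium and at 15.7 and 16.7 CPM in knockout endothelium. Podocyte libraries held 83.9 and 60.3 CPM in wild type and 105 and 93.2 CPM in knockout. The knockout libraries were below the wild-type ones in endothelium and above them in podocytes. Endothelium over podocytes gave a log2 fold change of −1.22 (SE 0.29, edgeR adjusted p 0.0222) in wild type, or 2.33-fold higher in podocytes, and of −2.62 (SE 0.30, edgeR adjusted p 0.000357) in knockout, or 6.14-fold higher. The wild-type call was lost without endothelium 2 (adjusted p 0.148) or podocyte 2 (0.224). Art3, which overlaps Cxcl10 in the RefSeq table, had between 335 and 684 counts per library, and whether reads of the overlap were split is not given in the sources used here.

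Cxcl9 (Entrez 17329, chr5:92321347-92328079 in GRCm38) had a lower mean level than Cxcl10 in all 4 groups, also per transcript length. Its levels were 3.80 and 2.53 CPM in wild-type and 6.13 and 6.02 CPM in knockout endothelium, from 50, 35, 87 and 70 counts. In podocytes they were 3.95 and 2.69 CPM in wild type and 3.11 and 4.72 CPM in knockout. The knockout endothelial libraries were the highest of the 8, and the difference between cell types did not pass in wild type (log2 fold change −0.07, SE 0.49, edgeR adjusted p 0.971) or in knockout (0.64, SE 0.48, edgeR adjusted p 0.484).

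Cxcl13 (Entrez 55985, chr5:95956951-95961068 in GRCm38) encodes the B cell attractant acting on CXCR5. Endothelium held 124 and 68.6 CPM in wild type and 54.6 and 27.9 CPM in knockout. Podocytes held 109 and 76.1 CPM in wild type and 46.5 and 24.2 CPM in knockout. The levels of the 2 cell types lay close together within each genotype, and library 2 was above library 3 in all 4 groups. Endothelium over podocytes gave a log2 fold change of 0.05 (SE 0.41, 95% interval −0.86 to 0.97, edgeR adjusted p 0.974) in wild type and 0.22 (SE 0.42, −0.70 to 1.14, edgeR adjusted p 0.809) in knockout.

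The sequences upstream of 4 of these genes are shown because Cxcl1 and Cxcl10 moved together over the libraries, Cxcl9 is the neighbouring gene with the same receptor that did not move with them, and Cxcl13 had the largest difference by genotype in podocytes. RefSeq promoter windows (GRCm38.p6) were matched by symbol and gene ID for 6 of the 9 ligands, and those of Ccl2, Ccl7 and Cxcl16 are not printed. Each line gives the 250 bases before the annotated start site, 5′ to 3′ on the gene's strand, with motif matches in capitals.
Cxcl1, plus strand, chr5:90890995-90891244: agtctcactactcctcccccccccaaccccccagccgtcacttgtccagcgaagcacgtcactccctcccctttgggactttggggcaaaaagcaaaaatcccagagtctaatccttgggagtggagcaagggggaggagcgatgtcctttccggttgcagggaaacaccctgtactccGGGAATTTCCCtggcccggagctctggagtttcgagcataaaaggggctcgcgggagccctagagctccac
Cxcl10, minus strand, chr5:92348890-92349139: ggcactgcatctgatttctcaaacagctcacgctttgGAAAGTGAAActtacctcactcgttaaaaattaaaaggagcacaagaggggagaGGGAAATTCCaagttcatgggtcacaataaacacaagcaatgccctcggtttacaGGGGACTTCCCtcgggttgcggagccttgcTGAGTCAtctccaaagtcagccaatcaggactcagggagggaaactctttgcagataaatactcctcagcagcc
Cxcl9, minus strand, chr5:92328080-92328329: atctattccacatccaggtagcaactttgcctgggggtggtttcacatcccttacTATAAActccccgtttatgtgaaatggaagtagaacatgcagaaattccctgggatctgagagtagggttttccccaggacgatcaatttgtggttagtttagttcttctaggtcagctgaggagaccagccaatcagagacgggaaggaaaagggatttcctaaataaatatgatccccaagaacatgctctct
Cxcl13, plus strand, chr5:95956689-95956938: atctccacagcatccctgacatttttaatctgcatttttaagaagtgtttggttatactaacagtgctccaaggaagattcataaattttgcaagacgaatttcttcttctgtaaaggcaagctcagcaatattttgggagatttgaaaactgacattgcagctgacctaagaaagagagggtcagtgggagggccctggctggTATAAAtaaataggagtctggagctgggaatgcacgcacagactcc
The NF-kB consensus, the interferon-stimulated response element (GAAA, any 2 bases, GAAA) and the AP-1 element TGANTCA were searched on both strands, and the TATA box TATAAA on the gene's strand. In Cxcl1, 2 overlapping NF-kB matches, GGGAATTTCC and GGAATTTCCC, began 71 and 70 bases before the start site. In Cxcl10, GGGAAATTCC began 159 bases before the start site, and the overlapping GGGGACTTCC and GGGACTTCCC began 104 and 103 bases before it. The response element in Cxcl10, GAAAGTGAAA, began 213 bases before the start and the AP-1 element TGAGTCA 74 bases before it. Cxcl9 and Cxcl13 had a TATAAA, 195 and 46 bases before the start, and no match to the other 3 motifs in this window. Of the 2 windows not shown, that of Cxcl12 had 0 matches to any of the motifs. Cxcl12 also moved with Cxcl1 and Cxcl10 over the libraries (Pearson r 0.80 and 0.79). The window of Cx3cl1 had a TATAAA 6 bases before the start and 0 matches to the others. Among 32851 windows of the same length, 7.25% held an NF-kB match, 2.98% the response element, 6.75% the AP-1 element and 7.59% a TATAAA. A match is a description of letters and says nothing of binding.

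Levels can be set side by side between genes only per length, here as CPM per kilobase of the longest GENCODE M21 transcript. In wild-type endothelium Cx3cl1 led at 133 CPM per kilobase, followed by Cxcl13 at 83.6 and Cxcl16 at 57.6, whose libraries overlapped each other but not those of Cx3cl1 (128 to 138). Cxcl10 (13.9), Cxcl12 (13.2) and Cxcl1 (10.6) overlapped as neighbours, and Ccl2 (7.29), Cxcl9 (1.10) and Ccl7 (0.38) each lay below the neighbour before. In wild-type podocytes Cxcl13 stood highest at 80.4 CPM per kilobase, ahead of Cx3cl1 (63.2), Cxcl12 (52.0), Cxcl16 (51.9), Cxcl10 (32.3), Cxcl1 (26.6), Ccl2 (17.4), Ccl7 (6.13) and Cxcl9 (1.15). The libraries of Cxcl13 did not overlap those of Cx3cl1, while Cxcl16 overlapped both Cx3cl1 and Cxcl12, and the pairs Cxcl10 and Cxcl1, Cxcl1 and Ccl2, and Ccl2 and Ccl7 also overlapped. In knockout endothelium the order was Cx3cl1 (134), Cxcl16 (44.9), Cxcl13 (35.8), Cxcl12 (12.7), Cxcl10 (7.25), Cxcl1 (4.73), Ccl2 (2.39), Cxcl9 (2.10) and Ccl7 (0.52), where Cxcl16 overlapped Cxcl13 and Ccl2 overlapped Cxcl9. In knockout podocytes Cxcl13 was in place 6 at 30.7 CPM per kilobase, and Cx3cl1 (54.6), Cxcl16 (45.5) and Cxcl10 (44.5) led, with libraries that overlapped one another. With the median transcript length, Cx3cl1 (449) and Cxcl12 (97.1) took the first places in wild-type podocytes, ahead of Cxcl16 (84.3) and Cxcl13 (80.4). In wild-type endothelium that length put Cx3cl1 at 945 and Cxcl16 (93.6) ahead of Cxcl13 (83.6). In knockout endothelium it put Cxcl9 (3.73) ahead of Ccl2 (2.75). In knockout podocytes Cx3cl1 (326 to 451) then did not overlap Cxcl10 (76.2 to 86.1) or Cxcl16 (52.6 to 95.1).

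**Figure D2:**
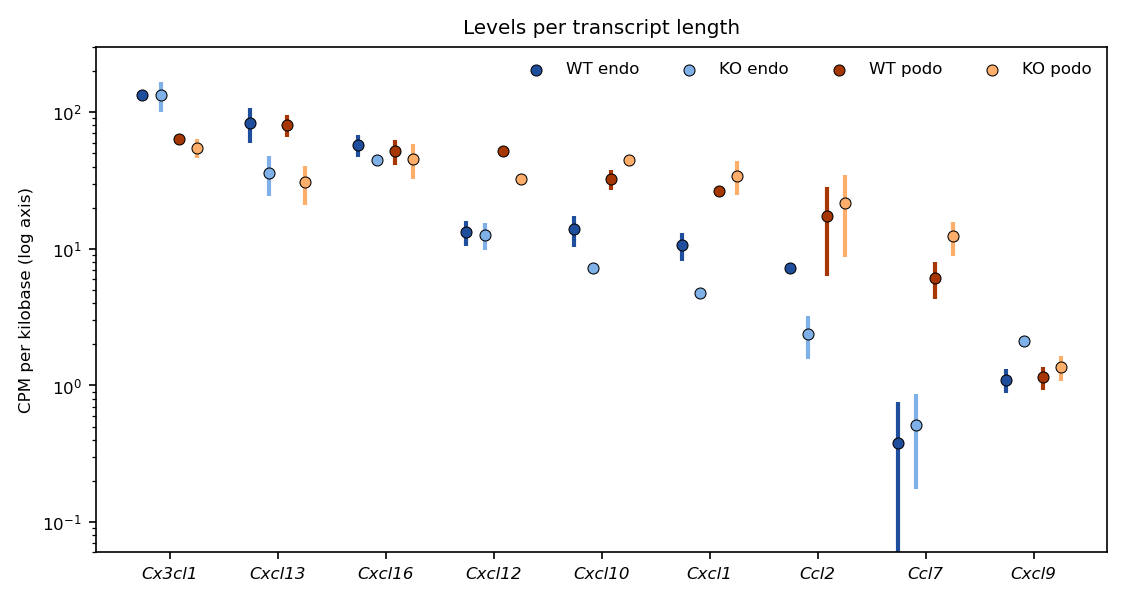
Level per transcript length (vertical log axis, CPM per kilobase of the longest transcript) of the 9 ligands (horizontal axis) in the 4 groups. Points are means of 2 libraries and lines run from the lower to the higher library, cut at the axis edge for Ccl7 in wild-type endothelium, where 1 library had 0 counts. Cx3cl1 leads in endothelium at 133 and 134 CPM per kilobase, and Cxcl9 and endothelial Ccl7 are lowest.

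The comparison of endothelium with podocytes asked where each ligand was made. In wild type, 4 of the 9 ligands (Ccl7, Cxcl1, Cxcl10 and Cxcl12) were higher in podocytes and 1 (Cx3cl1) in endothelium at an edgeR adjusted p under 0.05. Over all 16477 genes tested, 4.73% were higher in podocytes and 4.26% in endothelium. In knockout the same 4 ligands and Ccl2 were higher in podocytes and Cx3cl1 in endothelium, beside 6.09% and 4.28% of all genes. Ccl7 passed the low-count filter through podocytes, the side where it is high, so its calls are a description, and without it the counts higher in podocytes were 3 in wild type and 4 in knockout. The fits that left out 1 library gave, in wild type, 2 ligands higher in podocytes without endothelium 2, 3 without endothelium 3, 1 without podocyte 2 and 2 without podocyte 3, and 0 higher in endothelium in each. In knockout they gave 3, 3, 3 and 5 in the same order, with 0 higher in endothelium without endothelium 2 or podocyte 3 and 1 in the other 2 fits. Without overlap between libraries, 4 ligands were higher in podocytes and 1 in endothelium in wild type, as 25.7% and 21.2% of all genes were, and 5 and 2 in knockout, as 27.8% and 27.3% were. The median log2 fold change of the ligands was −1.22 in wild type and −1.35 in knockout, and that of all genes was −0.01 in each. Over all genes, library-size scaling moved the knockout split from 705 higher and 1004 lower in endothelium to 738 and 480. Under that scaling 3 ligands in wild type and 3 in knockout were called higher in podocytes, and 0 and 1 in endothelium. Several other measures also differed between the cell types: the 5 parietal epithelium markers (216 to 264 CPM in endothelium and 656 to 1727 CPM in podocytes) and, among the immune markers, Csf1r were on the podocyte side, most of the other immune markers were on the endothelial side, and of the 12 dissociation genes described below 1 in wild type and 4 in knockout were called higher in podocytes. Of the 7 mural and mesangial markers 6 were on the podocyte side in each genotype. The medians of that list were −1.08 in wild type and −0.98 in knockout. In each genotype 1 of them was called higher in podocytes and 1 in endothelium. Of the 5 proximal tubule markers 4 in wild type and 5 in knockout were on the podocyte side (medians −0.55 and −0.87). The part of these measures in the ligand values was not tested.

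**Figure D3:**
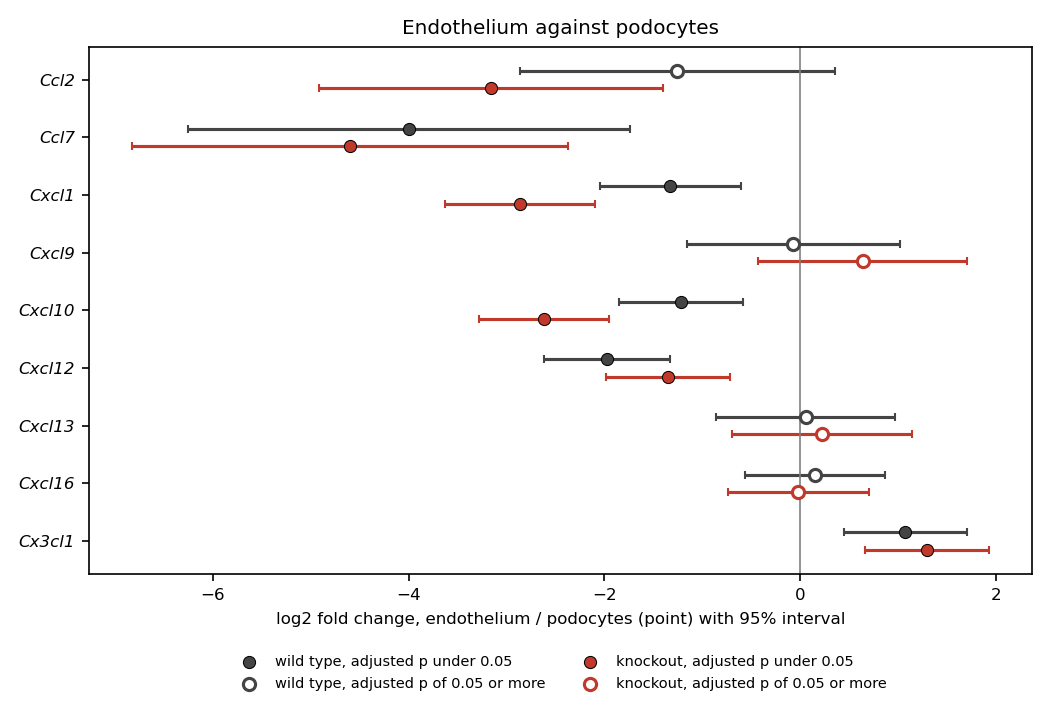
Log2 fold change of endothelium over podocytes (horizontal axis) for each ligand (vertical axis) in wild type (grey) and knockout (red), with 95% intervals from the edgeR fit to 8 libraries. Filled points have an adjusted p under 0.05. Ccl7, Cxcl1, Cxcl10 and Cxcl12 lie left of 0 and Cx3cl1 right of 0 in both genotypes.

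The comparison of knockout with wild-type endothelium asked whether loss of Emcn went with other chemokine levels in the cells that lost it. With edgeR, 0 of the 9 ligands had an adjusted p under 0.05, as against 0.00607% of all genes, which was Emcn alone. DESeq2 also called 0 ligands. At an unadjusted p under 0.05 there were 3 ligands, all lower in knockout, beside 2.88% of all genes, and DESeq2 gave 4. Library-size scaling gave 1 lower and 1 higher, and the fits that left out 1 endothelial library gave 1 lower (without wild-type 3), 2 lower and 1 higher (without wild-type 2), 3 lower (without knockout 2) and 2 lower (without knockout 3). The ligands lower with all 8 libraries were Cxcl1 (log2 fold change −1.16, SE 0.33, p 0.00551), Cxcl10 (−0.94, SE 0.29, p 0.00837) and Cxcl13 (−1.22, SE 0.42, p 0.0151), each with an edgeR adjusted p of 0.716. Ccl2 had a larger difference and a larger error (−1.59, SE 0.77), and its value was −2.21 without knockout endothelium 2 and −1.19 without knockout endothelium 3. The knockout libraries of these 4 ligands were below both wild-type libraries, which held for 19.7% of all genes. Cxcl9 was the 1 ligand whose knockout libraries were both above the wild-type ones (0.94, SE 0.49, edgeR adjusted p 0.716), as 24.8% of all genes were. Cxcl12 (−0.06, 95% interval −0.69 to 0.56) and Cx3cl1 (0.01, −0.61 to 0.64) had differences near 0. The median log2 fold change of the 9 ligands was −0.36, and that of all genes was 0.01. Scaling by library size moved the latter to 0.33.

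Other measures of the same endothelial libraries are given beside these values. The genotypes did not overlap in the dissociation, distal tubule and proximal tubule sums, and they overlapped in the mitochondrial share and in the immune and podocyte marker sums. The 12 genes of a dissociation response list (immediate-early and heat shock genes such as Fos, Egr1 and Hspa1a) summed to 40181 and 45896 CPM in wild-type and 25292 and 32786 CPM in knockout endothelium, and all 12 had a log2 fold change below 0, with a median of −0.72. The 6 distal tubule markers summed to 6724 and 15151 CPM in wild type and 2674 and 6454 CPM in knockout. Mitochondrial RNA took 13.3% and 26.2% of the wild-type and 10.1% and 19.6% of the knockout counts. The 10 immune markers summed to 66.1 and 38.1 CPM in wild type and 58.4 and 49.4 CPM in knockout. The 6 podocyte markers all had a log2 fold change below 0, with a median of −0.49, and summed to 2112 and 1092 CPM in wild type and 1343 and 1280.2 CPM in knockout. Of the 7 mural and mesangial markers 5 were above 0, with a median of 0.73, and 2 had an unadjusted p under 0.05, both higher in knockout, as 2.61% of all genes were. The 5 proximal tubule markers summed to 207 and 346 CPM in wild type and 626 and 383 CPM in knockout, and 4 of them were above 0, with a median of 0.23. The part of each in the ligand values was not tested.

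In podocytes the same comparison also called 0 of 9 ligands with edgeR, beside 0.00607% of all genes, and 0 with DESeq2. At an unadjusted p under 0.05 both tools gave 2 ligands, both lower in knockout, beside 1.63% of all genes by edgeR. Library-size scaling gave 1 lower and 1 higher, and leaving out 1 podocyte library gave 0 lower and 1 higher without wild-type 2 or without knockout 3, 2 lower without wild-type 3 and 1 lower without knockout 2. The ligands lower with all 8 libraries were Cxcl13 (log2 fold change −1.39, SE 0.42, p 0.00773) and Cxcl12 (−0.69, SE 0.28, p 0.0333), each with an edgeR adjusted p of 0.978, and their knockout libraries were below both wild-type ones, as for 16% of all genes. Ccl7 (1.01, SE 0.81) and Cxcl10 (0.46, SE 0.28) had both knockout libraries above the wild-type ones, as 15.1% of all genes did. The median log2 fold change of the 9 ligands was 0.23, and that of all genes was 0.02, or 0.13 with library-size scaling. The 6 podocyte markers summed to 16639 and 10592 CPM in wild type and 7677 and 9548 CPM in knockout, and the part of this in the Cxcl12 and Cxcl13 values was not tested. The 12 dissociation genes summed to 40959 and 33969 CPM in wild-type and 32082 and 28980 CPM in knockout podocytes. Of these genes 8 had a log2 fold change below 0, with a list median of −0.17. The 12 endothelial markers summed to 889 and 715 CPM in wild type and 688 and 579 CPM in knockout, with 7 below 0 (median −0.09). Knockout library 2 stood apart in 2 other marker lists, whose tested genes all had a log2 fold change above 0. The 5 parietal epithelium markers summed to 729 and 668 CPM in wild-type and 1727 and 656 CPM in knockout podocytes, and the 5 proximal tubule markers to 399 and 769 CPM and 2143 and 593 CPM. The part of these lists in the ligand values was not tested either.

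**Figure D4:**
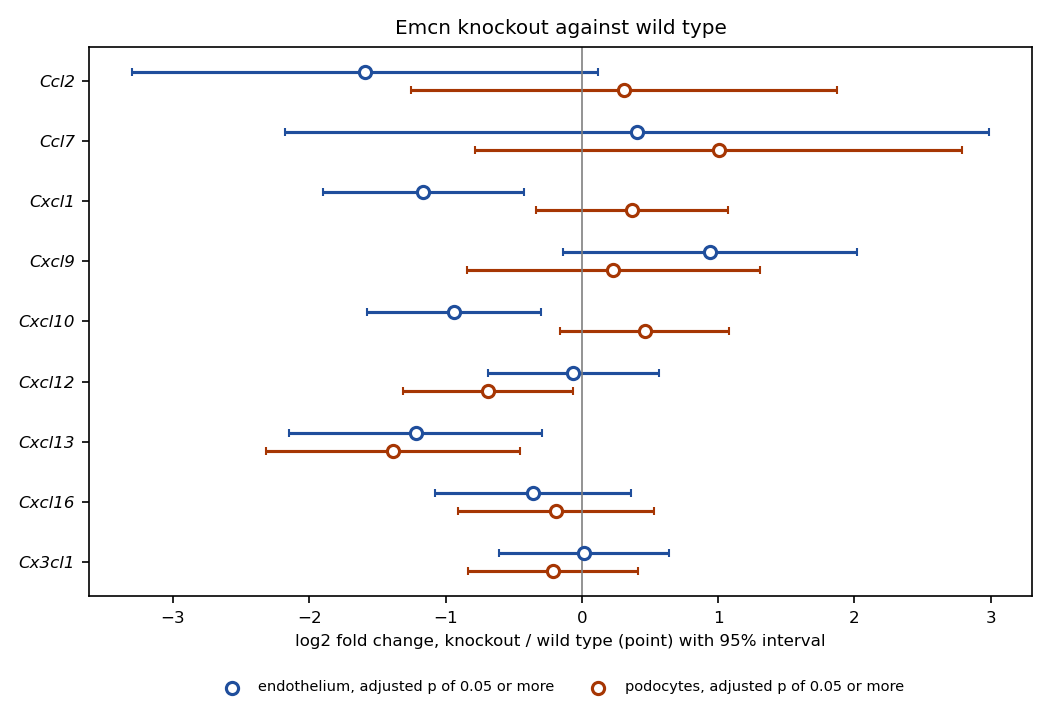
Log2 fold change of knockout over wild type (horizontal axis) for each ligand (vertical axis) in endothelium (blue) and podocytes (orange), with 95% intervals from the edgeR fit to 8 libraries. Open points have an adjusted p of 0.05 or more, which is all of them. The Cxcl13 intervals lie left of 0 in both cell types, and those of Cxcl1 and Cxcl10 lie left of 0 in endothelium and span 0 in podocytes.

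Cxcl13 was the 1 ligand whose knockout libraries were below the wild-type ones in both cell types, which held for 6.04% of all genes. The mean genotype effect over both cell types, a contrast chosen after these values were seen, was −1.30 (SE 0.30, 95% interval −1.96 to −0.64, p 0.00125), place 19 of all genes by p, with an edgeR adjusted p of 0.558. DESeq2 gave −1.34 with an adjusted p of 0.0216 in the same contrast. Over the fits that each left out 1 of the 8 libraries the value ran from −1.59 to −1.07, with edgeR adjusted p-values from 0.395 to 0.898. With edgeR 0 of the 9 ligands passed in this contrast, 1 (Cxcl13) had an unadjusted p under 0.05, beside 3.61% of all genes in that direction, and DESeq2 called 1. The edgeR fit called 0.00607% of all genes, Emcn alone. In the same contrast 6 of 6 podocyte markers (median −0.54), 6 of 6 distal tubule markers (−0.75) and 12 of 12 dissociation genes (−0.47) were below 0, and their part in the Cxcl13 value was not tested.

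Whether the effect of genotype itself differed by cell type was tested as an interaction, with the podocyte effect subtracted from the endothelial one. With edgeR and with DESeq2, 0 of 9 ligands passed, and edgeR called 0% of all genes. At an unadjusted p under 0.05 edgeR gave 2 ligands, both negative, beside 1.46% of all genes, and DESeq2 gave 3. They were Cxcl10 (−1.40, SE 0.40, p 0.00564) and Cxcl1 (−1.53, SE 0.46, p 0.00726), with an edgeR adjusted p of 1 each. The median over the 9 ligands was −0.17, and that of all genes was −0.03, or 0.18 with library-size scaling. Cxcl13 had a difference of 0.17 (SE 0.59), with a 95% interval from −1.13 to 1.46. The dissociation response list had a median difference of −0.72, with all 12 genes below 0. The distal tubule markers had 5 of 6 below 0 (median −1.29), the parietal epithelium markers 5 of 5 (−0.76) and the proximal tubule markers 5 of 5 (−0.47). The part of these lists in the Cxcl1 and Cxcl10 values was not tested.

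Levels of Cxcl1 and Cxcl10 moved together over the 8 libraries, with a Pearson r of 0.98 of log2 CPM. Both also moved with Ccl2 (r 0.85 and 0.83), Ccl7 (0.80 and 0.81) and Cxcl12 (0.80 and 0.79), and opposite to Cx3cl1 (−0.82 and −0.88). Cxcl9 went with neither (−0.63 with Cxcl1 and −0.53 with Cxcl10), and Cxcl13 showed r of 0.08 and −0.03. The 8 libraries are 4 groups of 2, and no correlation was computed within a cell type, which has 4 libraries.

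**Figure D5:**
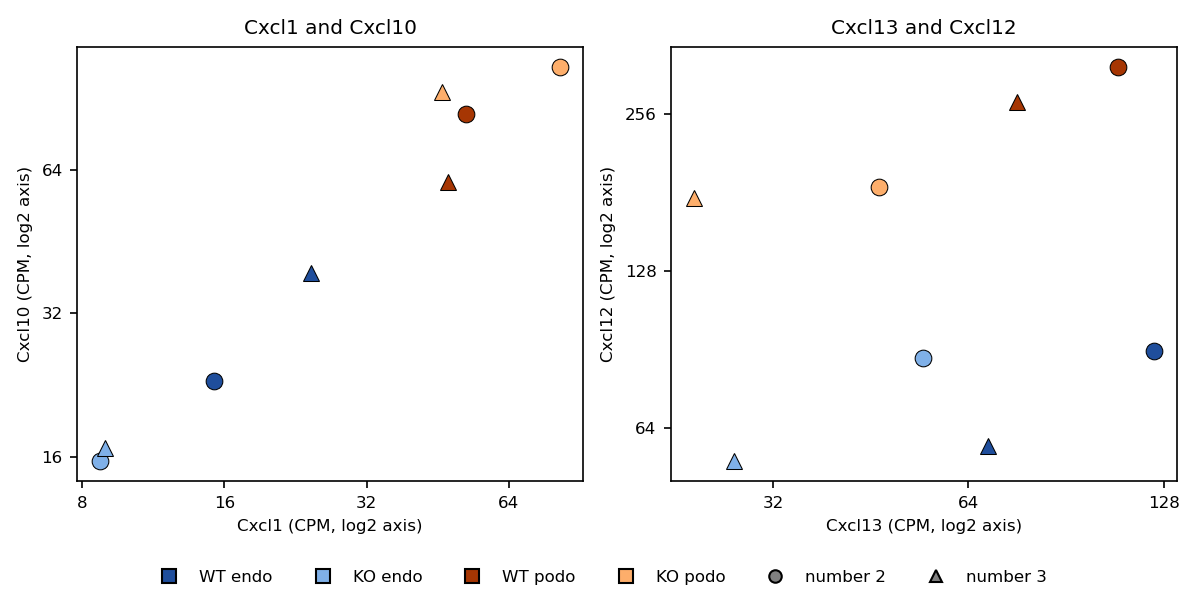
CPM of Cxcl10 against Cxcl1 (left) and of Cxcl12 against Cxcl13 (right) in the 8 libraries, both axes on a log2 scale. Colours are the 4 groups, circles libraries numbered 2 and triangles libraries numbered 3. Cxcl1 and Cxcl10 rank the cell types alike, with knockout endothelium lowest for both, whereas Cxcl13 separates the genotypes and Cxcl12 the cell types.

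Among 9957 or more genes with a mean of at least 5 CPM, those most like each ligand by Pearson r of log2 CPM over the 8 libraries were found for all 9. Taking the highest of so many genes over 4 groups of 2 libraries raises r by itself, so these values are a description. For Cxcl1 they were Errfi1 (0.997), Zfr2 (0.991) and Plxnb2 (0.990), and for Cxcl10 they were Cys1 (0.994), Cxcl1 (0.983) and Plxnb2 (0.983). For Cxcl12 they were Qsox2 (0.995), Zfp423 (0.994) and Abr (0.993). For Cxcl13 they were Dync1li1 (0.974), Zfp46 (0.974) and Mterf3 (0.965). Cx3cl1 was followed by Qpct (0.994), the interferon-induced Gbp3 (0.991) and Lpcat1 (0.989). Ccl7 had Zfp641 (0.977), Dennd11 (0.969) and Csf1r (0.969), the receptor of the macrophage growth factor. Ccl2 had Ctcf (0.985), Naaa (0.981) and Arhgap21 (0.968), Cxcl16 had Rcor3 (0.956) and Mcoln3 (0.940), and Cxcl9 had A430088P11Rik (0.955), Cfap47 (0.938) and Cep295 (0.928).

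The receptors through which these ligands signal had few counts in the sorted cells. Counts per library were 5 to 35 for Ccr2, 0 to 12 for Cxcr2, 0 to 5 for Cxcr3, 21 to 62 for Cxcr4, 24 to 85 for Cxcr5, 33 to 144 for Cxcr6 and 0 to 16 for Cx3cr1. Of 18 receptors on complete lines 16 were tested with edgeR, and 0 passed in the wild-type or knockout comparison of cell types, with 0 and 1 at an unadjusted p under 0.05, beside 19.6% and 22.9% of all genes. By genotype 0 passed in either cell type, with 1 at an unadjusted p under 0.05 in each, which were Cxcr6 in endothelium (log2 fold change 1.27, SE 0.55, edgeR adjusted p 0.716) and Ccr7 in podocytes, with 35 counts in 1 knockout library and 0 in the other 3. Both were higher in knockout, as were 2.61% and 2.8% of all genes at that p. Ccr7 had at most 1 count in any wild-type library, below the CPM needed by the low-count filter. It was therefore tested through knockout, where it is high, and its values, also among the 16 receptors below, are a description. In endothelium 16 of 16 receptors had a log2 fold change above 0, with a median of 0.98 against 0.01 over all genes, and the 18 on complete lines summed to 39.5 and 19.5 CPM in wild-type and 57.5 and 52.4 CPM in knockout libraries. The all-gene median was 0.33 with library-size scaling. In the same contrast 7 of 8 immune markers (median 0.34) and 17 of 21 other chemokine ligands (median 0.49) were above 0, and their part in the receptor values was not tested. Among the atypical receptors, Ackr3, which scavenges CXCL12, was on the podocyte side. Wild-type podocytes held 253 ± 68.6 CPM and wild-type endothelium 20.4 ± 2.01 CPM (SD, n = 2 each), a log2 fold change of −3.63 (SE 0.33, edgeR adjusted p 9.27e-05), and was also higher in knockout podocytes (−3.73, SE 0.33, edgeR adjusted p 8.87e-05). The cell type that held more Cxcl12 also held more Ackr3.

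Other atypical receptors were on the endothelial side. Ccrl2, which presents chemerin, had a wild-type level of 264 ± 1.90 CPM in endothelium and 18.7 ± 2.72 CPM in podocytes (SD, n = 2 each, log2 fold change 3.82, SE 0.25, edgeR adjusted p 3.09e-05). Ackr2, which takes up inflammatory CC chemokines, had levels of 31.5 ± 6.69 and 2.13 ± 1.82 CPM (SD, n = 2 each), a log2 fold change of 3.90 (SE 0.57, edgeR adjusted p 0.00140). That of Ackr2 was 3.22 without wild-type podocyte 2 and 5.21 without wild-type podocyte 3. Of the 4 tested, 2 were higher in endothelium and 1 in podocytes in each genotype, beside 4.26% and 4.73% of all genes in wild type and 4.28% and 6.09% in knockout. None had an unadjusted p under 0.05 by genotype in either cell type with edgeR, where the smallest adjusted p-values were 0.757 and 0.978.

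Among 7 proteases that shed or trim chemokines, Dpp4, which inactivates CXCL12 and CXCL10 by removing their first residues, was higher in podocytes. Its wild-type level was 2613 ± 620.2 CPM in podocytes and 212 ± 190.0 CPM in endothelium (SD, n = 2 each, log2 fold change −3.62, SE 0.58, edgeR adjusted p 0.00244). The log2 fold change of Dpp4 was −5.07 without wild-type endothelium 2 and −2.92 without wild-type endothelium 3. The sheddases of CX3CL1 and CXCL16 were present throughout, with 711 to 2259 counts of Adam10 and 913 to 1709 of Adam17 per library. Mmp12, a macrophage elastase, was higher in endothelium in knockout (2.81, SE 0.67, edgeR adjusted p 0.0232), from 242 and 56 counts against 17 and 28. That call was lost without knockout endothelium 2 (adjusted p 0.330, log2 fold change 1.62) and without knockout podocyte 2 (0.160), and the log2 fold change was 3.45 without knockout endothelium 3. By genotype 0 of the 7 passed in either cell type with edgeR, with 1 in endothelium, higher in knockout as 2.61% of all genes were, and 0 in podocytes at an unadjusted p under 0.05.

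Of 30 interferon pathway and target genes tested, 12 were higher in endothelium and 1 in podocytes in wild type, and 14 and 1 in knockout, with most on the side opposite to Cxcl10. Of all genes, 4.26% and 4.73% were called in these directions in wild type and 4.28% and 6.09% in knockout. Rsad2, an antiviral enzyme, had a wild-type level of 255 ± 6.54 CPM in endothelium and 21.5 ± 3.56 CPM in podocytes (SD, n = 2 each, log2 fold change 3.57, SE 0.33, edgeR adjusted p 0.000107). Gbp4 and Ifi44 had log2 fold changes of 4.43 (SE 0.48, edgeR adjusted p 0.000228) and 3.90 (SE 0.37, edgeR adjusted p 0.000126). The 1 gene higher in podocytes was Ifngr1, the interferon-gamma receptor (−1.61, SE 0.29, edgeR adjusted p 0.00453), and the same gene in knockout (−1.15, SE 0.28, edgeR adjusted p 0.0268). The wild-type call was lost without endothelium 3 (adjusted p 0.0567) or podocyte 2 (0.0619). The knockout call was lost with library-size scaling (0.183) and without endothelium 2 (0.0658), endothelium 3 (0.168), podocyte 2 (0.0661) or podocyte 3 (0.0678). The median of the list was 0.72 in wild type and 0.83 in knockout. By genotype 0 of 30 passed in either cell type with edgeR, with 0 in endothelium and 2 in podocytes at an unadjusted p under 0.05. Both were higher in knockout, as were 2.8% of all genes at that p. They were Ifit3 (1.60, SE 0.50) and Gbp5 (1.91, SE 0.67), with edgeR adjusted p-values of 0.978. Ifit3 stood at 607 CPM in knockout podocyte 2 and 179 CPM in knockout podocyte 3, and its log2 fold change was 0.46 without the former. That of Gbp5 was 1.18 without wild-type podocyte 2 and 3.46 without wild-type podocyte 3.

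Of 28 NF-kB pathway and target genes 18 were on complete lines and 16 were tested, so this list was covered in part. Csf1, the macrophage growth factor, was the 1 gene that passed between cell types in wild type, at 320 ± 1.51 CPM in endothelium and 101 ± 4.38 CPM in podocytes (SD, n = 2 each, log2 fold change 1.67, SE 0.26, edgeR adjusted p 0.00185). It was also the 1 that passed in knockout (1.71, SE 0.26, edgeR adjusted p 0.00177). Of all genes, 4.26% and 4.28% were called higher in endothelium. By genotype in endothelium 14 of 16 had a log2 fold change below 0, with a median of −0.23, and 0 passed with edgeR. The median of all genes was 0.01, or 0.33 with library-size scaling. The 12 dissociation genes lay below 0 in the same libraries, with a median of −0.72, and their part in the values of this list was not tested. The cytokine gene Lif was the 1 with an unadjusted p under 0.05, beside 2.88% of all genes lower at that p (−2.56, SE 0.74, edgeR adjusted p 0.716, DESeq2 adjusted p 0.0486), from 45 and 287 wild-type counts against 23 and 29 knockout counts. Its log2 fold change was −0.75 without wild-type endothelium 3, the library with 287 counts, and −3.35 without wild-type endothelium 2. In podocytes 0 passed and 0 had an unadjusted p under 0.05 with edgeR. The smallest p-values were those of Il1b (1.59, SE 0.81) and Il6 (−1.35, SE 0.72), whose log2 fold changes ran from 1.09 to 2.39 and from −2.44 to −0.69 when 1 library was left out.

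Of 30 other chemokine ligands 21 were on complete lines, and all 21 were tested. Between the cell types 0 passed in wild type with edgeR, with 3 at an unadjusted p under 0.05 beside 19.6% of all genes, and Ccl21a, a lymphatic chemokine, was called in knockout (edgeR adjusted p 0.0402) from 19 and 26 counts in endothelium against 0 and 1 in podocytes, as 4.28% of all genes were called higher there. It passed the low-count filter through the knockout endothelial libraries alone, so this is a description. In knockout 5 had an unadjusted p under 0.05 (3 higher and 2 lower in endothelium), beside 22.9% of all genes. The Ccl21a call was lost with library-size scaling (adjusted p 0.0515) and without knockout endothelium 2 (0.116), endothelium 3 (0.179), podocyte 2 (0.218) or podocyte 3 (0.0677). By genotype 0 passed in either cell type, with 4 at an unadjusted p under 0.05 in endothelium, all higher in knockout, and 1 in podocytes, also higher. Of all genes, 2.61% and 2.8% were higher at that p. Ccl22 and Ccl24 had the smallest p-values in endothelium, from 4 and 3 wild-type counts against 34 and 17 knockout counts for Ccl22, and from 2 and 1 counts against 23 and 7 for Ccl24 (edgeR adjusted p 0.716 each). Ccl24 reached the CPM needed by the low-count filter in 0 wild-type libraries, so it was tested through knockout, where it is high. Its values, also in the count of 4, are a description. The 21 genes together summed to between 44.7 and 61.5 CPM per library. The sum of the 9 ligands, which were chosen with earlier results of these data known, was between 565 and 918 CPM. These sums are not scaled by transcript length, so the 2 lists are not compared.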

How the data were processed

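Polyadenylated RNA of sorted kidney cells was sequenced from TruSeq libraries, per the labels' protocols. The authors deposited 1 table of raw counts per Entrez gene. The submitters' processing notes name the build mm10 and DESeq2, and the aligner, counter and annotation are not given in the sources used here. Of 22533 gene lines, 5207 (23.1%) held fewer than 8 readable counts and were left out. These lines leave empty cells in 3 deposited columns, recorded as another unit for that reason, whose complete lines hold whole counts. The members and lists were chosen with earlier results of these data known.

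Counts were analysed with edgeR 4.0.16 in R 4.3.3 (filterByExpr, TMM scaling, 1 mean per group over all 8 libraries, quasi-likelihood F test). P-values were adjusted by Benjamini-Hochberg over 16477 genes, with a threshold of 0.05. Standard errors are the log2 fold change over the square root of F, and 95% intervals use the fit's residual (4) and prior (6.40) degrees of freedom. Log2 CPM used a prior count of 2. The fit was tested on simulated data. Alternatives were DESeq2 size factors, library size only, the DESeq2 1.42.0 Wald test, no filter beyond 1 count, the replicate block and each library left out in turn. A fit without 1 library assumes that the lone library varies like the other groups. Gene positions and transcript lengths came from GENCODE M21 (GRCm38, the assembly of mm10), overlaps and promoters from RefSeq.

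All 9 ligands are named. From each other list the rule named up to 3 genes in each direction past the threshold, or the 2 of smallest p. The 3 genes most like a ligand were named by Pearson r, except 1 gene that is not reported here. The ligands' own receptors, Adam10, Adam17, Csf1r and Art3 were named outside that rule after their values were seen, and the dissociation list and the mean genotype contrast were added then. Marker lists not quoted elsewhere summed, over the 8 libraries, to 407 to 1223 CPM (mural and mesangial, 7 of 11 genes), 7.74 to 36.3 CPM (fibroblast, 3 of 6), 207 to 2143 CPM (proximal tubule, 5 of 8), 216 to 1727 CPM (parietal epithelium, 5 of 5) and 5.01 to 20.8 CPM (erythroid and platelet, 3 of 8).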

Additional observations from a re-analysis of the deposited data

Results flagged for a closer look

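Cxcl10 was the 1 ligand whose knockout libraries were both below the wild-type ones in endothelium and both above them in podocytes, a pattern found in 1.3% of all genes. The difference of the genotype effects (endothelium minus podocytes) was −1.40 (SE 0.40) on the log2 scale, with an unadjusted p of 0.00564 and an edgeR adjusted p of 1 over all genes. Over the fits that left out 1 library each it ran from −1.73 to −0.98.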

How the results depend on the processing

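All values are log2 fold changes or counts of genes with an adjusted p under 0.05. Library-size scaling called 0 genes by genotype in endothelium and 0 in podocytes, where TMM called Emcn. The DESeq2 Wald test called 10 (2 higher, 8 lower in knockout) and 12 (10 higher, 2 lower), and 13 in the mean genotype contrast. Leaving out 1 library each gave 0 to 0 genes in endothelium, 0 to 1 in podocytes, 769 to 1085 between wild-type cell types, 960 to 1809 between knockout cell types and 1 to 1 in the mean contrast. With 2 libraries a group, a gene with few counts, such as endothelial Ccl7, has wide intervals.

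The numbers 2 and 3 are shared by the groups, but no label ties them to an animal or a day. Deviations of same-numbered libraries from their group means correlated at 0.188 by genotype in endothelium, 0.157 in podocytes, −0.129 between wild-type and 0.111 between knockout cell types (16477 genes). With the replicate block edgeR called 1, 1, 0, 1831 and 2241 genes in the 5 planned comparisons and 2 in the mean contrast, where Cxcl13 (−1.34, adjusted p 0.0183) joined Emcn, and it changed no other call of a ligand. The block with podocyte numbers crossed, chosen after seeing the data, called 1357 genes between wild-type cell types. In that fit the calls of Emcn by genotype were lost in endothelium (adjusted p 0.0904) and podocytes (0.144) and kept in the mean contrast (0.00751).

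Values that changed sign were all of uncalled differences. Cx3cl1 in endothelium by genotype became −0.0424 with DESeq2 size factors, −0.0424 with the DESeq2 Wald test and −0.018 with the replicate block. Library-size scaling gave 0.25 for Cxcl12 and 0.0053 for Cxcl16 by genotype in endothelium, 0.0878 for Cxcl16 in the difference of genotype effects, 0.0259 for Cxcl9 between wild-type and 0.26 for Cxcl16 between knockout cell types, and 0.0042 for Cxcl10 and 0.13 for Cx3cl1 in the mean contrast. The cause was not tested.

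Leaving out 1 library each changed the sign of these values. By genotype in endothelium the ranges were −1.05 to 5.52 for Ccl7, −0.44 to 0.26 for Cxcl12 and −0.40 to 0.33 for Cx3cl1. In podocytes they were −0.998 to 1.80 for Ccl2, −0.11 to 0.72 for Cxcl1, −0.10 to 0.55 for Cxcl9, −0.68 to 0.17 for Cxcl16 and −0.47 to 0.0044 for Cx3cl1. For the difference of genotype effects they were −2.05 to 4.51 for Ccl7, −0.41 to 0.71 for Cxcl13, −0.54 to 0.31 for Cxcl16 and −0.19 to 0.54 for Cx3cl1. Between wild-type cell types they were −1.97 to 0.21 for Ccl2, −0.39 to 0.25 for Cxcl9, −0.43 to 0.42 for Cxcl13 and −0.14 to 0.48 for Cxcl16. Between knockout cell types they were −0.35 to 0.76 for Cxcl13 and −0.39 to 0.46 for Cxcl16. In the mean contrast they were −1.30 to 0.11 for Ccl2, −0.0236 to 3.26 for Ccl7 and −0.31 to 0.0567 for Cx3cl1.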
